A study of Mus musculus with 10 samples.

Results

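The transcripts described here encode enzymes and membrane proteins of the lysosome. They are 33 genes of the 55487 in the deposited table, chosen by gene symbol from a list of lysosomal proteins, and every member was found in the table. By role, they comprised 7 membrane proteins (Lamp1, Lamp2, Cd63, Scarb2, Laptm5, Mcoln1 and Cln3), 12 proteases (Ctsa, Ctsb, Ctsc, Ctsd, Ctsf, Ctsh, Ctsk, Ctsl, Ctss, Ctsz, Lgmn and Tpp1), 7 glycosidases (Glb1, Hexa, Gaa, Gla, Gusb, Neu1 and Man2b1) and 5 enzymes or cofactors of lipid breakdown (Lipa, Asah1, Smpd1, Psap and Ppt1). Grn, which encodes progranulin, and Tfeb, which encodes a transcription factor, completed the list. RNA was sequenced from the ovaries of mice with a C57BL/6J background in 3 groups, with a library for each ovary. The Control group held 4 ovaries of mice aged 8 weeks, the Aged group 3 ovaries of mice aged 11 months by the labels, and the Aged+CF group 3 ovaries of mice of that same age. The study's methods give a lower age for the mice of both aged groups than the labels do. Aged+CF mice had received injections into the tail vein of 200 μL of CEFFE, an extract of fat that holds proteins but no cells, with a protein concentration of 3 μg/μL, and by the study's methods the Control and Aged mice had received saline. All mice, the Control mice included, had been given 10 IU of PMSG, a gonadotropin that drives follicle growth, 48 h before the ovaries were taken. Ovaries are named by group and by the replicate number of their label.

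Lysosomes are acidic organelles in which proteases, glycosidases and lipases break down material delivered by endocytosis and autophagy, inside a membrane lined with glycoproteins such as the product of Lamp1. TFEB and its relatives MITF and TFE3 bind a short palindrome, the CLEAR element, in the promoters of many lysosomal genes. In the ovary, lysosomal enzymes are known from macrophages, from the regressing corpus luteum and from granulosa cells of atretic follicles, and the β-galactosidase activity used to stain senescent cells comes from the product of Glb1.

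Promoter sequences were available from RefSeq (GRCm38.p6) for 30 of the 33 members, and covered 250 bases before the start site and 50 after it. The table used held no promoter of Asah1, Ctsb or Ctsh. The letters TCACGTG, the core of the CLEAR element, were searched on both strands. They were found for 9 of the 30 members, against 4.29% of all gene symbols with a promoter in the same table. The 9 members were Cln3, Ctsa, Ctsd, Gaa, Gla, Glb1, Lamp1, Lgmn and Mcoln1, and among these Cln3 also held the whole CLEAR palindrome, which 0.37% of all symbols held. In Aged vs Control, Lamp1 and Ctsd passed at adjusted p, Lgmn at unadjusted p only, and Cln3, Mcoln1 and Gla at neither. The stretches below are shown because they carry the match in these members. They lie at chr8:13159079-13159160 (+ strand) for Lamp1, chr7:142387908-142387937 (- strand) for Ctsd, chr12:102439116-102439162 (- strand) for Lgmn, chr7:126583340-126583369 (- strand) for Cln3, chr8:3500462-3500491 (+ strand) for Mcoln1 and chrX:134601182-134601211 (- strand) for Gla. Start sites here are those of RefSeq. By GENCODE M21, the stretches of Ctsd, Lgmn, Cln3 and Mcoln1 lie inside the gene. All 30 bases shown for Ctsd, Cln3, Mcoln1 and Gla lie in annotated exons, counted over exons of any gene. Each stretch is written in the direction of the gene, and capitals mark TCACGTG on either strand.
Lamp1: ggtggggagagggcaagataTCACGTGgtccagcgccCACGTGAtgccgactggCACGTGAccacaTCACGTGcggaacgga
Ctsd: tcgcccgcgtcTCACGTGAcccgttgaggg
Lgmn: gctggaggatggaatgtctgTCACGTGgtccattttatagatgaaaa
Cln3: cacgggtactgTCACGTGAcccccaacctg
Mcoln1: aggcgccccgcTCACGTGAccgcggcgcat
Gla: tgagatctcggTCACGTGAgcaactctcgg
Lamp1 held 4 matches, all within the last 62 bases before its start site. The 6 members with a match that were not called in Aged vs Control at either p (Cln3, Ctsa, Gaa, Gla, Glb1 and Mcoln1) had log2 fold changes between -0.30 and 0.12. The window of Tfeb itself held no match, nor did those of Ppt1, Laptm5 and Ctss, which says only that these letters are not in these windows.

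A second motif, GAGGAAGT, the core bound by PU.1 of myeloid cells, was searched because the members include genes of immune cells. It was found for 4 of the 30 members (Ctsc, Ctss, Gla and Gusb), against 3.69% of all symbols. For Ctss it began 2 bases before the start site on the opposite strand, in the stretch chr3:95526764-95526791 (+ strand), shown because Ctss had the largest fold change among the members.
Ctss: tgaaaccgaaatgaaagttcACTTCCTC
A match describes the letters of a window, and binding was not measured.

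The authors deposited raw counts, which summed to 15761789 in the shallowest ovary and to 21318254 in the deepest. Of the 55487 genes, 18956 passed a filter on low counts and were tested, among them all 33 members. TMM scaling gave CPM, the count a gene would have in a library of a common size. The markers listed for granulosa cells summed to between 2495 and 7431 CPM in all 10 ovaries and those of oocytes to between 12.2 and 475 CPM, and no marker of either list was at 0 throughout a group. Replicate 34 of Aged stood apart in its marker sums for T and B cells (190 CPM, against 5.46 to 27.9 in all other ovaries) and for theca and stroma (4262 CPM, against 1478 to 2588). Its oocyte sum of 12.2 CPM was the lowest, against 89.45 to 475 CPM in all other ovaries. Oviduct markers summed to 407 CPM in Control replicate 33 and 315 CPM in Aged replicate 34, and to no more than 62.5 CPM elsewhere. Several results for the members are given with and without Aged replicate 34, while those for markers and for single genes outside the members include it.

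Levels of the members differed widely per gene length, as FPKM shows. In Control, Psap, the precursor of the saposins that help degrade sphingolipids, had the highest level at 524 ± 46.6 FPKM (SD, n = 4) and made up 29.1% of the members' summed FPKM. It was followed by Lamp1 at 190 ± 5.86, the aspartic protease gene Ctsd at 169 ± 11.5, and the cysteine protease gene Ctsb at 148 ± 12.4 FPKM. The means of Ctsd and Ctsb lay closer together than the sum of their SDs. The lowest levels were those of Cln3, a membrane protein whose loss causes a childhood neurodegeneration, at 2.70 ± 0.358, of Gla, α-galactosidase A, at 2.38 ± 0.271, and of Tfeb at 1.61 ± 0.425 FPKM. Psap also led in Aged (700.5 ± 112 FPKM, n = 3) and in Aged+CF (724 ± 96.3 FPKM, n = 3). The 5 members with the highest levels made up 64.1%, 66.0% and 67.5% of the summed FPKM in Control, Aged and Aged+CF, and Lgmn, a protease that cuts after asparagine, took the place of Ctsz among them in both aged groups.

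**Figure D1:**
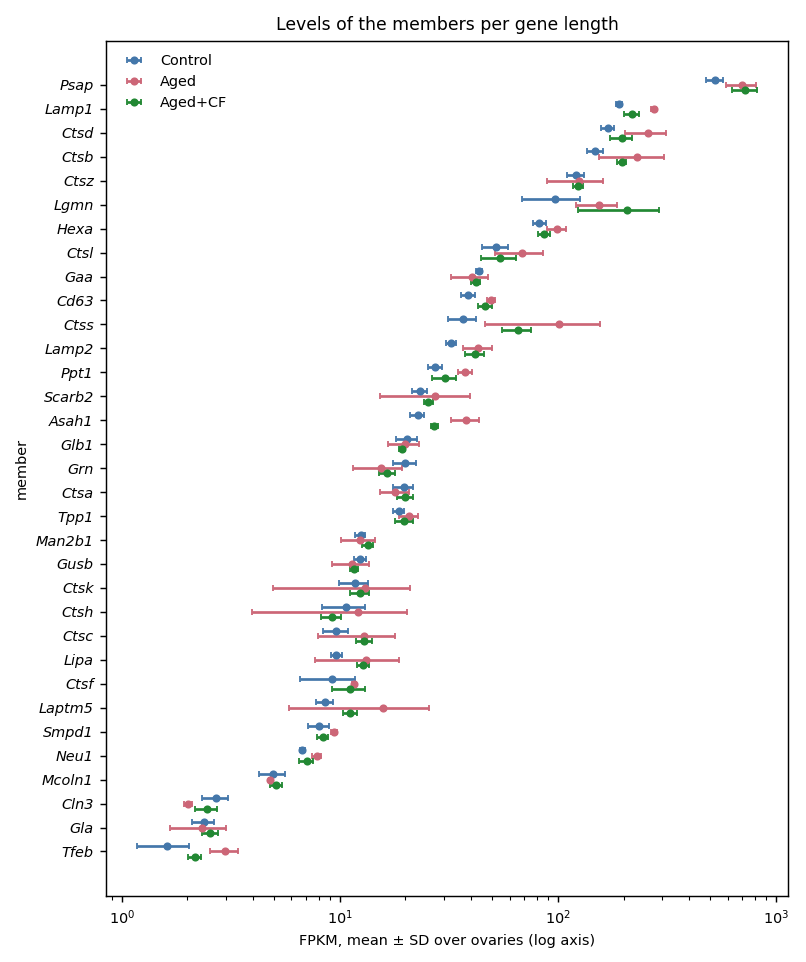
FPKM of the 33 members (mean ± SD over ovaries, log axis) in Control (n = 4), Aged (n = 3) and Aged+CF (n = 3), ordered by the Control mean. Levels run from 1.61 FPKM for Tfeb to 524 FPKM for Psap in Control, and the widest Aged bars relative to the mean belong to Ctsh, Laptm5 and Ctsk.

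The first comparison, Aged vs Control, asked how the aged ovary differed from the young one. The members took a larger part of the RNA in Aged. Their summed level was 7675, 7592, 8037 and 7514 CPM in Control replicates 31, 32, 33 and 34 and 10386, 10929 and 12369 CPM in Aged replicates 31, 33 and 34, so that the groups did not overlap. Of the 33 members, 8 rose by at least 1.5-fold with an adjusted p under 0.05 (edgeR's quasi-likelihood test, Benjamini-Hochberg adjustment over all genes tested), and none fell. Over all genes tested, 11.1% passed this rule, 5% upwards and 6.06% downwards. When either Control replicate 32 or Control replicate 34 was left out, 5 members were called (Asah1, Ctsd, Ctss, Lamp1 and Tfeb). Over all genes, 5.74% and 5.8% were called in these fits. With the replicate number of the labels as a block, 0 members were called at adjusted p, and 0.422% of all genes. The 8 were the membrane protein genes Lamp1 and Laptm5, the proteases Ctsb, Ctsd and Ctss, the lipid enzymes Asah1 and Ppt1, and Tfeb. At the unadjusted p, Lgmn made 9, against 18.2% of all genes, 8.79% upwards and 9.44% downwards. Without a limit on the fold change, 14 members were higher at adjusted p (15.4% of all genes passed, 7.14% upwards and 8.3% downwards), with Cd63, Lamp2, Hexa, Neu1, Psap and Smpd1 added. The median log2 fold change of the members was 0.39, against -0.0005 over all genes tested, and 30 members had a value above 0. Of the 3 below 0, Ctsa (-0.002) moved above it with DESeq2's size factors. In whole ovaries, a change in the share of a cell type and a change of RNA within cells cannot be told apart, and the p values measure the spread between these ovaries.

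**Figure D2:**
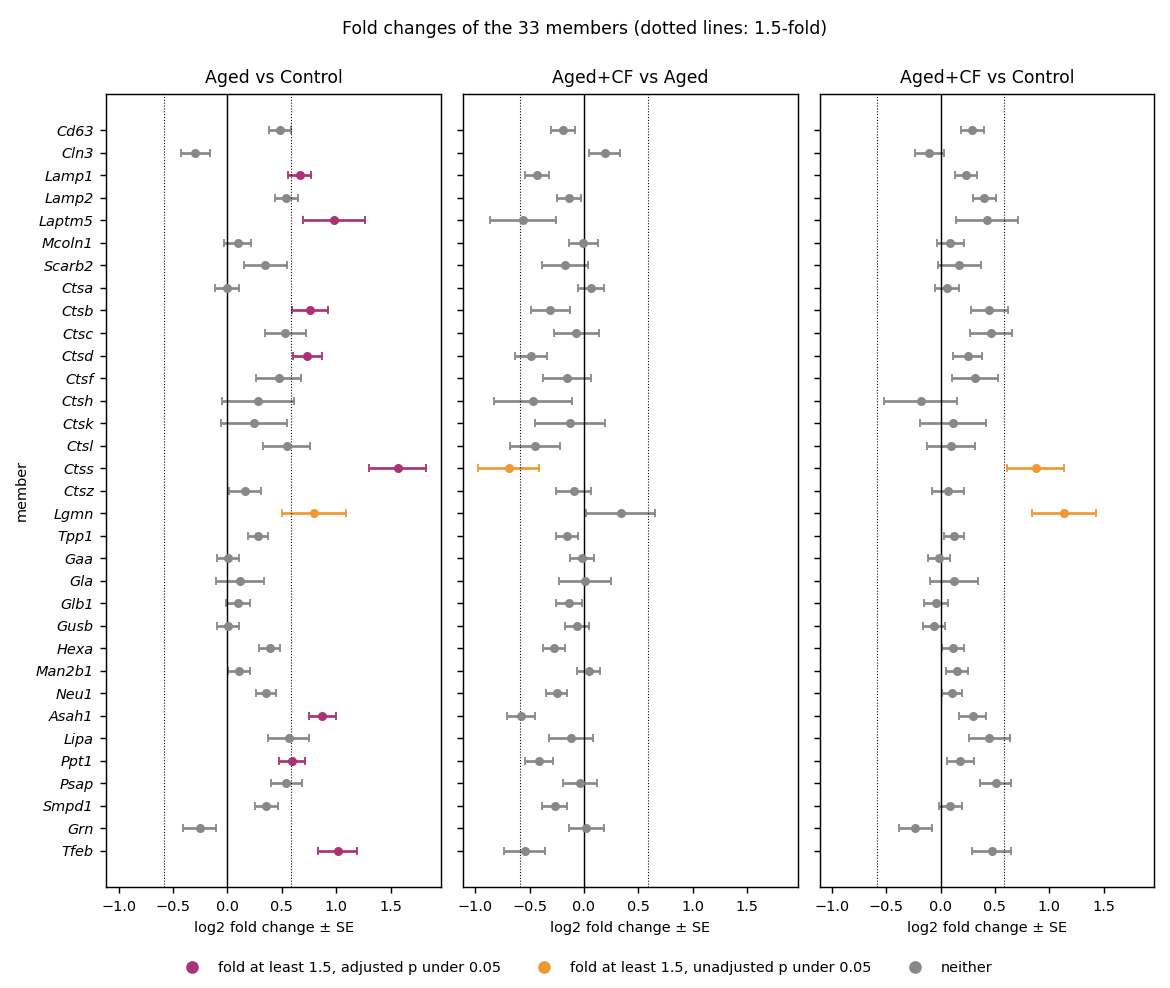
Log2 fold change (± SE) of each member in the 3 comparisons of the groups, coloured by the call, with dotted lines at 1.5-fold. In Aged vs Control 8 members pass at adjusted p and all of them lie to the right, while no member passes at adjusted p in the other panels.

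Among the membrane proteins, Lamp1, a glycoprotein that lines the inner face of the lysosomal membrane, varied least among the Control ovaries. It stood at 535, 511, 529 and 520 CPM in Control replicates 31, 32, 33 and 34, at 811, 914 and 762 CPM in Aged replicates 31, 33 and 34, and at 571, 679 and 598 CPM in Aged+CF replicates 30, 32 and 34. Every Aged ovary lay above all Control and all Aged+CF ovaries. The log2 fold change in Aged vs Control was 0.66 ± 0.10 (SE, adjusted p = 0.00589 by edgeR). Laptm5, a membrane protein of blood-derived cells, had 43.0, 47.3, 50.3 and 41.7 CPM in Control, 66.7, 54.2 and 149 CPM in Aged, and 60.8, 57.0 and 65.5 CPM in Aged+CF, in the same order of replicates. Its rise (log2 fold change 0.98 ± 0.28, adjusted p = 0.0438 by edgeR) came largely from Aged replicate 34, and without that ovary the log2 fold change was 0.44 with an adjusted p of 0.0272, below the 1.5-fold limit. The call of Laptm5 held in 2 of the 10 fits that left out 1 ovary. Lamp2 (log2 fold change 0.54) and the tetraspanin gene Cd63 (0.48) were higher at adjusted p (0.0123 and 0.0166 by edgeR) with no overlap between the groups, at less than 1.5-fold. Scarb2, the receptor that carries glucocerebrosidase to the lysosome (0.35, adjusted p = 0.261 by edgeR), and the calcium channel gene Mcoln1 (0.10, adjusted p = 0.643 by edgeR) did not pass. Cln3 was the only member whose Aged ovaries all lay below the Control ovaries (23.7 to 25.4 CPM against 25.5 to 35.7 CPM), and its log2 fold change of -0.30 had an adjusted p of 0.161 by edgeR. Of all genes tested, 27.5% had groups that did not overlap, and of the members 17 did, 16 of them higher in Aged.

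Among the proteases, Ctss had the largest fold change of all members. Ctss encodes cathepsin S, which antigen-presenting cells use to process the invariant chain of MHC class II. Its level was 59.8, 59.7, 77.1 and 58.9 CPM in Control, 135, 137 and 295 CPM in Aged, and 115, 100.3 and 136 CPM in Aged+CF. The Aged ovaries lay above all Control ovaries, and Aged replicate 34 was by far the highest. The log2 fold change in Aged vs Control was 1.56 ± 0.26 (adjusted p = 0.00764 by edgeR) with all ovaries and 1.12 without Aged replicate 34, where the adjusted p was 0.00241. Ctsd, the main aspartic protease of the lysosome, stood at 642, 569, 591 and 559 CPM in Control, at 852, 933 and 1160.5 CPM in Aged and at 651, 799 and 652 CPM in Aged+CF. The Aged values did not overlap with those of either other group, and the log2 fold change in Aged vs Control was 0.73 ± 0.13 (adjusted p = 0.00967 by edgeR). Ctsb, cathepsin B, had 824, 896, 996 and 913 CPM in Control, 1252, 1328 and 2023 CPM in Aged and 1180.1, 1319 and 1216 CPM in Aged+CF. All aged ovaries, treated or not, lay above the Control ovaries. Its log2 fold change of 0.76 ± 0.17 (adjusted p = 0.0177 by edgeR) became 0.54 without Aged replicate 34, under the 1.5-fold limit.

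Lgmn encodes legumain, which also activates other cathepsins by cutting their precursors. It varied more within groups than any other member in Control and in Aged+CF, with 423, 252, 305 and 227 CPM in Control, 602, 592 and 381 CPM in Aged and 477, 978 and 535 CPM in Aged+CF. The log2 fold change in Aged vs Control of 0.80 ± 0.29 passed at unadjusted p only (adjusted p = 0.0944 by edgeR), and Control replicate 31 lay above Aged replicate 34. Ctsc, which activates serine proteases of immune granules (log2 fold change 0.53), Ctsf (0.47), Ctsl (0.55) and Tpp1, a tripeptidyl peptidase (0.28), passed at unadjusted p at less than 1.5-fold, with adjusted p values between 0.0623 and 0.151 by edgeR. The remaining proteases, Ctsa, Ctsh, Ctsk and Ctsz, had log2 fold changes between -0.002 and 0.28 with adjusted p values of at least 0.502 by edgeR. The median log2 fold change over the 12 proteases was 0.50.

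The glycosidases differed least, with a median log2 fold change of 0.11 over the 7 members. None of them passed 1.5-fold. Hexa, the α subunit of β-hexosaminidase, stood at 143, 168, 157 and 167 CPM in Control, at 190, 216 and 219 CPM in Aged and at 157, 183 and 176 CPM in Aged+CF, and the Aged ovaries lay above those of both other groups. Its log2 fold change in Aged vs Control was 0.39 ± 0.10 (adjusted p = 0.0252 by edgeR). The sialidase gene Neu1, with a log2 fold change of 0.35 (adjusted p = 0.0298 by edgeR), also separated the groups, at 38.5 to 40.7 CPM in Control and 47.0 to 56.6 CPM in Aged. Glb1, which encodes the lysosomal β-galactosidase, had 71.0, 69.3, 85.5 and 74.9 CPM in Control, 92.9, 76.5 and 71.9 CPM in Aged and 74.3, 73.6 and 71.1 CPM in Aged+CF. The groups overlapped, and the log2 fold change of 0.10 ± 0.11 had an adjusted p of 0.592 by edgeR. Gaa, which degrades glycogen, Gla, Gusb, β-glucuronidase, and Man2b1, an α-mannosidase, had log2 fold changes between 0.003 and 0.12, none past either p.

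All 5 members of lipid breakdown were higher in Aged at the unadjusted p without a limit on the fold change, where 31.6% of all genes passed, 15.7% upwards and 15.9% downwards. None had any overlap between the groups, where 11.8% of all genes were higher in Aged with no overlap and 15.6% lower, and the median log2 fold change of the 5 was 0.56. Asah1, acid ceramidase, which splits ceramide into sphingosine and a fatty acid, had the largest change of them, with 122, 112, 128 and 131 CPM in Control, 181, 267 and 228 CPM in Aged and 155, 149 and 149 CPM in Aged+CF. The Aged+CF ovaries lay close together, below every Aged ovary and above every Control ovary. The log2 fold change in Aged vs Control was 0.87 ± 0.12 (adjusted p = 0.00497 by edgeR). Ppt1, which removes palmitate from proteins, stood at 154, 147, 165 and 142 CPM in Control, at 230.1, 262 and 196 CPM in Aged and at 157, 199.6 and 160 CPM in Aged+CF. Its log2 fold change of 0.59 ± 0.12 (adjusted p = 0.0144 by edgeR) lay just past the 1.5-fold limit, and its Aged and Aged+CF ovaries overlapped. Psap (log2 fold change 0.54) and Smpd1, acid sphingomyelinase (0.36), were higher at adjusted p below 1.5-fold (0.0325 and 0.0487 by edgeR), and Lipa, which frees cholesterol and fatty acids from lipoproteins, had 0.56 at an adjusted p of 0.0702 by edgeR.

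Tfeb rose with an adjusted p of 0.00876 by edgeR. Tfeb stood at 14.2, 11.4, 19.4 and 12.1 CPM in Control, at 27.1, 27.8 and 31.9 CPM in Aged and at 20.1, 18.4 and 20.953 CPM in Aged+CF. Every Aged ovary exceeded every ovary of the other groups, and the log2 fold change was 1.01 ± 0.18, with 0.92 to 1.20 in the 10 fits that left out 1 ovary. Activity of TFEB is set largely by where the protein lies in the cell, which RNA does not measure. Grn, whose product is needed for lysosomal function, had a log2 fold change of -0.25 (adjusted p = 0.29 by edgeR) and overlapping groups.

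**Figure D3:**
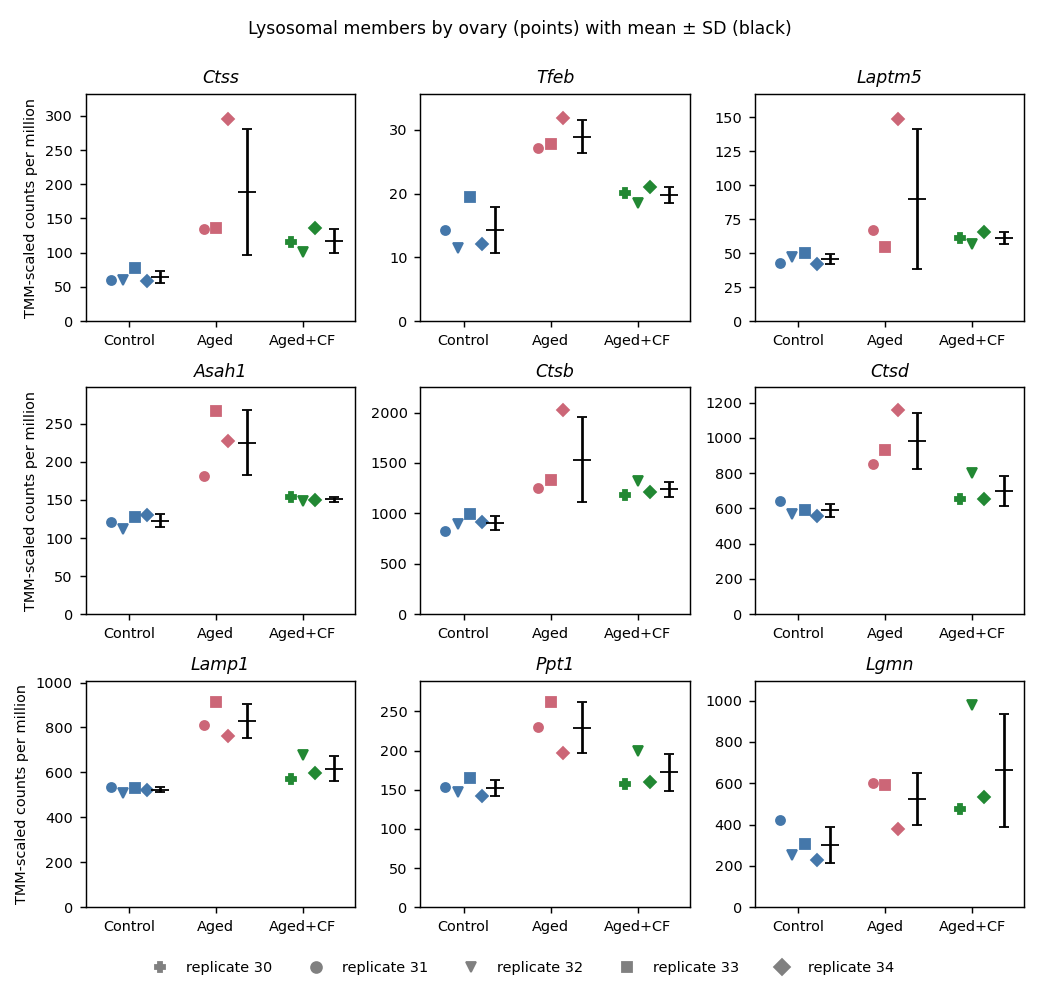
CPM in each ovary (symbols give the replicate number) with the group mean ± SD (black) for the 8 members that rose in Aged vs Control and for Lgmn, each axis starting at 0. All Aged points lie above all Control points except for Lgmn, and Aged replicate 34 is far above the other Aged ovaries for Ctss, Laptm5 and Ctsb.

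By the median over the members, the Aged ovaries differed among themselves more than those of the other groups did. The median coefficient of variation of the members was 8.65% in Control and 8.55% in Aged+CF, and 13.8% in Aged. A coefficient above 30% was found for 9 members in Aged (Ctsc, Ctsh, Ctsk, Ctsl, Ctss, Gla, Lipa, Laptm5 and Scarb2), for Lgmn in Aged+CF and for no member in Control. The wider spread was not particular to the members. Over all but the lowest-counted genes, the chi-square per degree of freedom between pairs of ovaries was 45.7 to 117.1 in Aged. It was 17.26 to 28.35 in Control and 17.36 to 37.32 in Aged+CF. Of the 33 members, 18 had their highest Aged value in replicate 34, 11 in replicate 33 and 4 in replicate 31. Ctsh, a cathepsin with aminopeptidase activity, was at 52.3, 58.5 and 148 CPM in Aged replicates 31, 33 and 34, and Ctsk, a protease that degrades collagen, at 14.7, 12.8 and 33.6 CPM. In both, replicates 31 and 33 lay within or just below the Control range and replicate 34 far above it. Ctsl showed another order, with 569, 862 and 464 CPM in the same ovaries, and only replicate 34 fell inside the Control range of 362 to 516 CPM.

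Marker sums of several cell types also differed between the ovaries. The 15 macrophage markers summed to between 401 and 446 CPM in Control, to 509, 522 and 769 CPM in Aged replicates 31, 33 and 34, and to 513, 490 and 626 CPM in Aged+CF replicates 30, 32 and 34. In Aged vs Control 5 of the 15 rose at adjusted p and 1.5-fold, where 5% of all genes did. Without a limit on the fold change 7 of them rose at adjusted p, where 7.14% of all genes did. Cx3cr1 was lower at unadjusted p and 1.5-fold (log2 fold change -0.86). No marker of the list was at 0 throughout a group. Aged replicate 34, with the highest macrophage sum, held the highest value of 16 of the 33 members. They were Lamp2, Ctsb, Ctsc, Ctsd, Ctsh, Ctsk, Ctss, Ctsz, Hexa, Gusb, Lipa, Tpp1, Tfeb, Laptm5, Man2b1 and Scarb2. How often each ovary held the highest value over all genes was not computed. Over all but the lowest-counted genes, Aged replicate 34 lay farthest from its group. Its chi-square per degree of freedom was 74.26 and 117.1, against 45.7 between Aged replicates 31 and 33. Aged replicate 34 also had the highest T and B cell sum, the highest theca and stroma sum and the lowest luteal and oocyte sums of the Aged group. Aged+CF replicate 34, with the highest macrophage sum of its group, held the highest value of 0 members. The 6 luteal markers summed to between 4324 and 7085 CPM in Control, to 16830, 23140 and 9187 CPM in Aged and to 10210, 14660 and 8457 CPM in Aged+CF, and all 6 rose in Aged vs Control at adjusted p. Aged replicate 33, with the highest luteal sum, held the highest value of 10 members (Lamp1, Cd63, Ctsf, Ctsl, Gla, Neu1, Asah1, Smpd1, Ppt1 and Mcoln1). Aged+CF replicate 32, with the highest luteal sum of its group, had the highest Ctsa, Psap and Lgmn of all ovaries. Other lists also held differences in Aged vs Control at adjusted p and 1.5-fold, where 5% of all genes rose and 6.06% fell. Of the 10 oocyte markers 9 fell (median log2 fold change of the list -2.51), of the 7 T and B cell markers 6 rose (2.32), of the 5 endothelial markers 4 rose (0.61), of the 9 granulosa markers 1 fell, and none of the 7 theca and stroma markers passed. The part of these cell types in the members' differences was not tested. Without Aged replicate 34, 8 members were called at adjusted p in Aged vs Control (Asah1, Ctsd, Ctsl, Ctss, Lamp1, Lgmn, Ppt1 and Tfeb), of 16.1% of all genes, so that Ctsb and Laptm5 left the list and Ctsl and Lgmn joined it.

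**Figure D4:**
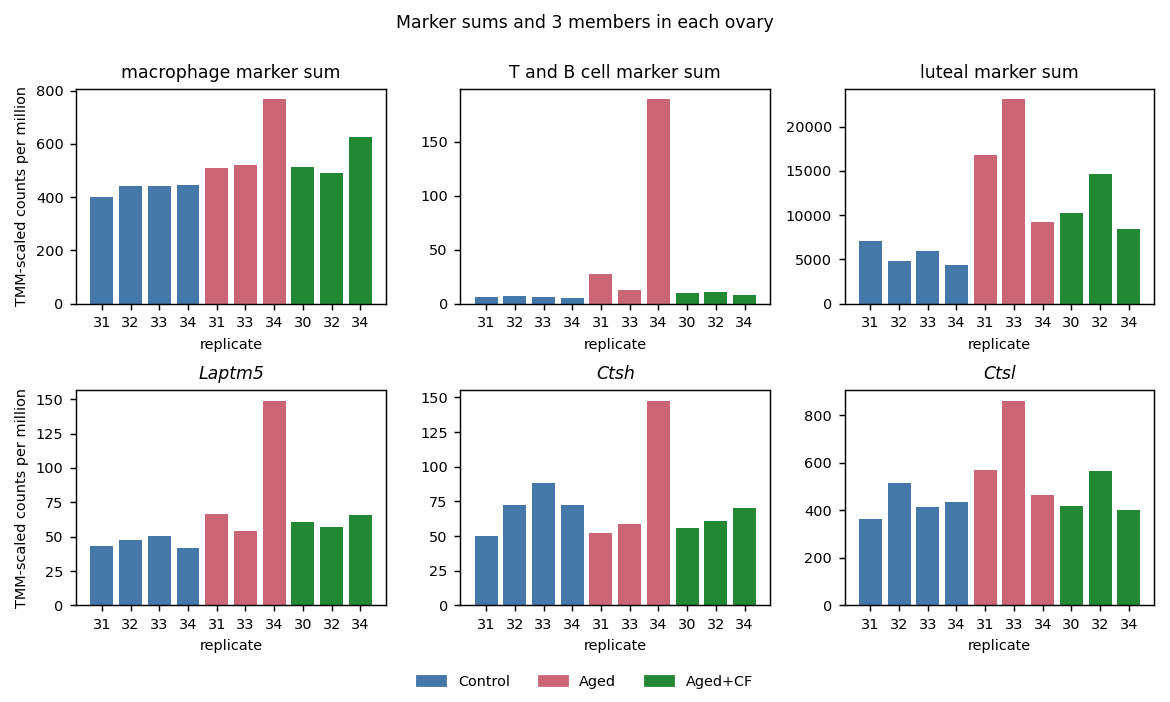
Summed CPM of the macrophage, T and B cell and luteal markers (upper row) and CPM of Laptm5, Ctsh and Ctsl (lower row) in each ovary, coloured by group, with bars from 0. Laptm5 and Ctsh are highest in Aged replicate 34, as are the macrophage sum (769 CPM) and the T and B cell sum (190 CPM), while Ctsl is highest in Aged replicate 33, as is the luteal sum (23140 CPM).

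Reads of overlapping genes can add to a member's count, since strand use in counting was not given in the sources used here. On GRCm38, Ctsb (chr14:63122462-63145923, + strand) overlaps Fdft1 on the opposite strand, and Fdft1, an enzyme of sterol synthesis, itself rose in Aged vs Control (log2 fold change 1.66, from 55.3 ± 6.45 to 174 ± 49.5 CPM). Lamp1 (chr8:13159161-13175338, + strand) overlaps Grtp1 (log2 fold change 0.14) and Ppt1 (chr4:122836242-122859175, + strand) overlaps Cap1 (log2 fold change 0.26), both on the opposite strand, and neither passed at adjusted p. Ctsd (chr7:142375911-142388038, - strand) shares its strand with Gm49369, at no more than 1.04 CPM on average in any group. Asah1 (chr8:41340197-41374773, - strand), Laptm5 (chr4:130913125-130936141, + strand), Tfeb (chr17:47737030-47792419, + strand) and Lgmn (chr12:102394084-102439813, - strand) overlap no annotated gene, and Ctss (chr3:95526786-95556403, + strand) overlaps only a processed pseudogene of Hmgb1.

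The second comparison, Aged+CF vs Aged, asked whether aged ovaries of mice given CEFFE differed from those given saline. It shares the Aged ovaries with the first comparison, so the values of both are given side by side and their directions are not independent. No member passed at adjusted p by edgeR, where 0.00528% of all genes did, and DESeq2's Wald test called 1 member, Asah1, where it called 2.49% of the genes it adjusted. At unadjusted p and 1.5-fold, 1 member was called, Ctss, lower in Aged+CF, against 7.96% of all genes, 3.91% upwards and 4.05% downwards. Without a limit on the fold change, 9 members were lower at unadjusted p and none was higher, where 16.3% of all genes passed, 8.06% upwards and 8.27% downwards. They were Asah1, Ctsd, Ctss, Hexa, Lamp1, Neu1, Ppt1, Smpd1 and Tfeb. The median log2 fold change of the members was -0.16, against -0.02 over all genes tested, and it was -0.07 without Aged replicate 34. Of the members, 27 had a value below 0. The call of Ctss was lost with the replicate number as a block, where Lgmn was called higher, and in a fit of only the groups compared, where Asah1 was called lower. No marker of these cell types passed at adjusted p in this comparison. At unadjusted p and 1.5-fold, 6 of the 7 T and B cell markers were lower in Aged+CF and 3 of the 10 oocyte markers were higher, and 8 of the 10 oocyte markers had all Aged+CF ovaries above all Aged ovaries. The T and B cell sum was 27.9, 12.7 and 190 CPM in Aged replicates 31, 33 and 34, and these calls include replicate 34. The oocyte sum was 98.06, 89.45 and 12.19 CPM in the same ovaries, and 132.2 to 204.2 CPM in Aged+CF. The part of T and B cells and oocytes in the members' values was not tested.

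Asah1 ranked first by p among the members in this comparison. Its log2 fold change was -0.58 ± 0.13 (adjusted p = 0.161 by edgeR), after 0.87 in Aged vs Control, and it was -0.59 without Aged replicate 34. Lamp1 followed with -0.43 ± 0.11 (adjusted p = 0.169 by edgeR), and Ctsd with -0.49 ± 0.14 (adjusted p = 0.182 by edgeR). For each of these members, all Aged+CF ovaries lay below all Aged ovaries. Tfeb, at -0.54 ± 0.19 (adjusted p = 0.222 by edgeR), showed the same separation, and so did Hexa (-0.28), Neu1 (-0.25) and Smpd1 (-0.27). In all, 7 members had Aged+CF ovaries below all Aged ovaries and none had them above, where 18.6% of all genes had groups that did not overlap, 10.2% higher and 8.39% lower in Aged+CF. Ppt1, at -0.41 ± 0.13 (adjusted p = 0.204 by edgeR), had overlapping groups, since Aged+CF replicate 32 exceeded Aged replicate 34. Ctss, with the largest fold change at -0.69 ± 0.28 (adjusted p = 0.27 by edgeR), also overlapped, and its log2 fold change became -0.23 when Aged replicate 34 was left out (adjusted p = 0.392 by edgeR). Smpd1 had 41.6, 36.4, 46.2 and 41.2 CPM in Control, 49.4, 58.5 and 51.2 CPM in Aged and 40.4, 44.7 and 46.9 CPM in Aged+CF, so that the Aged+CF ovaries fell within or near the Control range.

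Other members showed no such separation from Aged. Psap had 2116, 1936, 2194 and 1843 CPM in Control, 2847, 2723 and 3256 CPM in Aged and 2539, 3332 and 2737 CPM in Aged+CF. The aged groups overlapped widely and both lay above Control, with a log2 fold change of -0.04 ± 0.15 (adjusted p = 0.929 by edgeR) in Aged+CF vs Aged. Lamp2 (-0.14) and Ctsc (-0.07) were also close to their Aged levels, with adjusted p values of 0.565 and 0.892 by edgeR. Lgmn was higher on average in Aged+CF, at 663 ± 274 CPM (SD, n = 3) against 525 ± 125 CPM (n = 3) in Aged, but its log2 fold change of 0.34 ± 0.32 had an adjusted p of 0.621 by edgeR. This value turned on Aged+CF replicate 32, with 978 CPM, and was -0.05 without it. Laptm5, at -0.56 ± 0.31 (adjusted p = 0.387 by edgeR), came to -0.001 on the log2 scale without Aged replicate 34. The glycosidases other than Hexa and Neu1 had log2 fold changes between -0.14 and 0.04.

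**Figure D5:**
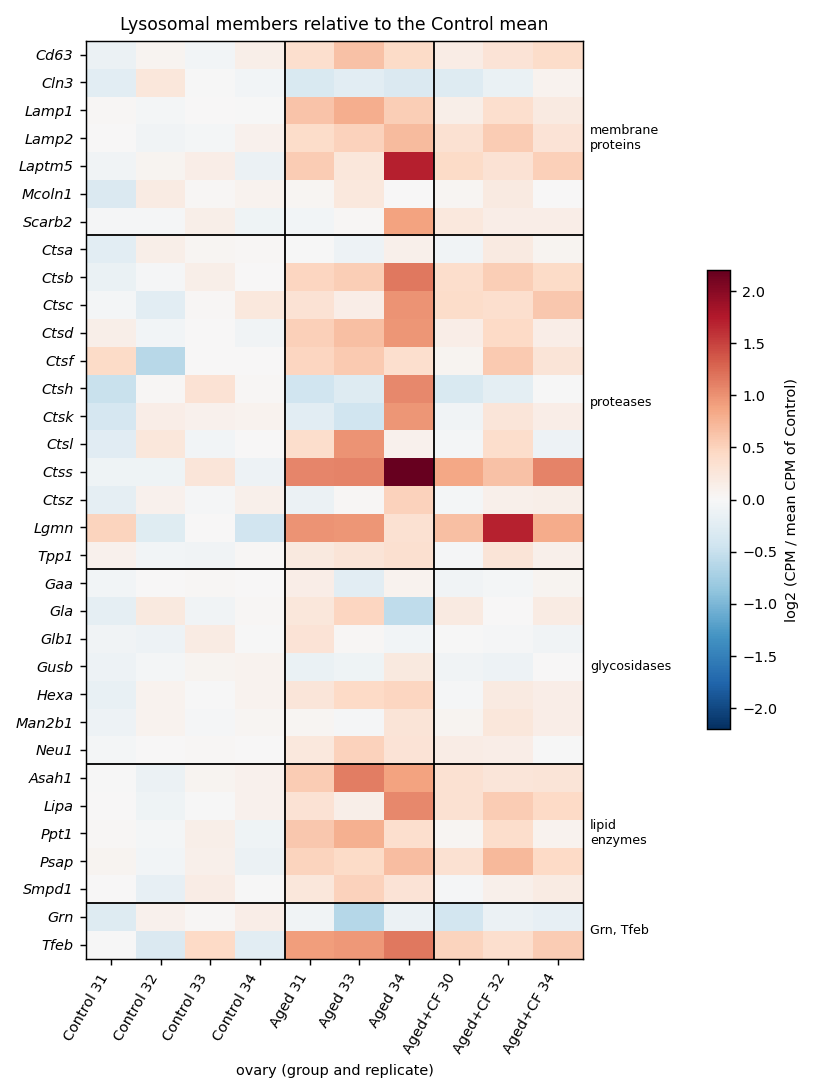
Log2 ratio of CPM in each ovary to the Control mean for the 33 members, grouped by role, with Control, Aged and Aged+CF ovaries from left to right. Ctss, Tfeb, Asah1 and Lamp1 are above the Control mean in all Aged ovaries, Gaa and Gusb stay near it, and Ctss in Aged replicate 34 (295 CPM) and Lgmn in Aged+CF replicate 32 (978 CPM) stand out.

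The third comparison, Aged+CF vs Control, sets the treated aged ovaries beside the young ones, and shares its ovaries with the comparisons above. No member passed at adjusted p by edgeR, where 0.179% of all genes did, 0.137% upwards and 0.0422% downwards, while DESeq2's Wald test called Ctss and Lgmn, where it called 2.57% of the genes it adjusted. At the unadjusted p and 1.5-fold, Ctss and Lgmn were higher in Aged+CF, against 7.69% of all genes, 3.33% upwards and 4.36% downwards. Lgmn had a log2 fold change of 1.14 ± 0.30 (adjusted p = 0.15 by edgeR), which was 0.75 without Aged+CF replicate 32, and Ctss had 0.87 ± 0.26 (adjusted p = 0.19 by edgeR). Without a limit on the fold change, 11 members were higher at unadjusted p and none lower, where 14.3% of all genes passed, 6.41% upwards and 7.89% downwards. They were Asah1, Cd63, Ctsb, Ctsc, Ctss, Lamp1, Lamp2, Lgmn, Lipa, Psap and Tfeb. Psap, at 0.50 ± 0.14 (adjusted p = 0.178 by edgeR), and Lamp2, at 0.40 ± 0.11 (adjusted p = 0.154 by edgeR), came next in order of p after Lgmn. Of the members, 13 had all Aged+CF ovaries above all Control ovaries, where 21.9% of all genes had groups that did not overlap and 9.69% were higher in Aged+CF. For Ctsb, the Aged+CF ovaries at 1180.1 to 1319 CPM lay above the highest Control ovary at 996 CPM and overlapped with the Aged ovaries. Summed over the members, Aged+CF ovaries reached 8960, 11132 and 9497 CPM in replicates 30, 32 and 34. All 3 lay above the Control ovaries, and replicate 32 lay within the Aged range. The median log2 fold change of the members was 0.15, against -0.03 over all genes tested.

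A wider list of 76 genes, of which 74 were tested, was read the same way. They are called other lysosomal genes here, although not every product is confined to the lysosome, Neu3 being an exception. In Aged vs Control, 9 of them rose at adjusted p and 1.5-fold (Acp5, Cstb, Fuca2, Gpnmb, Hgsnat, Laptm4b, Lyz2, Npc2 and Slc17a5) and 1 fell (Neu3), with a median log2 fold change of 0.27, where 5% of all genes rose and 6.06% fell. These 10 calls became 4 without Control replicate 34, where 5.8% of all genes were called. They became 6 without Control replicate 31 or 32, where 8.54% and 5.74% were called. Without Aged replicate 34 they became 20, where 16.1% of all genes were called. The highest values were those of Gpnmb, a glycoprotein of lipid-laden macrophages, at 2.15, Acp5, tartrate-resistant acid phosphatase, at 1.73, Lyz2, lysozyme of myeloid cells, at 1.57, and the aspartic protease gene Napsa at 1.57, the last with an adjusted p of 0.0565 by edgeR. Gpnmb stood at 60.8 to 88.1 CPM in Control, at 162, 191 and 552 CPM in Aged and at 148 to 166 CPM in Aged+CF, and Lyz2 at 184 to 230.3, at 398, 437 and 958 and at 330.1 to 359 CPM. Both were highest in Aged replicate 34, as Ctss was, and the fold changes of single genes of this list are given with that ovary included. Neu3, a sialidase of the plasma membrane, fell by 1.29 on the log2 scale (adjusted p = 0.008 by edgeR). In Aged+CF vs Aged, none passed at adjusted p by edgeR with all ovaries, against 3 without Aged replicate 34 and 2 by DESeq2's Wald test, and at unadjusted p and 1.5-fold 5 were lower, with Gpnmb at -0.92, Acp5 at -0.82, Lyz2 at -0.81 and Laptm4b at -0.73 ahead of Npc2, and Neu3 was higher at 0.89, where 4.05% of all genes were lower and 3.91% higher. In Aged+CF vs Control, none passed at adjusted p by edgeR, again with 3 without Aged replicate 34 and 2 by DESeq2's Wald test, and Gpnmb (1.23), Acp5 (0.91), Lyz2 (0.75) and Pcyox1 (0.61) were higher at unadjusted p and 1.5-fold, as were 3.33% of all genes.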

How the data were processed

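RNA of 10 mouse ovaries was analysed. The authors deposited read counts per gene and FPKM. Per the submitters' processing notes TopHat, Cufflinks 2.1.1 and GRCm38.p4 were used, while the counting tool, annotation and strand setting are not given in the sources used here. The deposited FPKM is the count divided by a gene length and by the library total, without TMM scaling, so for 6 members with small differences (Glb1, Gaa, Gla, Gusb, Mcoln1 and Man2b1) its sign in Aged vs Control differs from that of the fit.

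Counts were analysed with edgeR 4.0.16 in R 4.3.3: filter on low counts by group, TMM, and a two-sided quasi-likelihood F test in a fit of all 10 ovaries with a mean per group. A member was called past 1.5-fold with p under 0.05, adjusted over the 18956 genes tested or unadjusted, since the study names both. Values per ovary were given for members called in Aged vs Control at adjusted p and for the 8 largest folds past the unadjusted p in Aged+CF vs Aged; other members are given by range, or singly where chosen after their values were seen. Of the wider list, up to 4 rises and 4 falls per comparison with a mean of at least 1 CPM were named. Members and lists were chosen with earlier results of these data known. Positions are from GENCODE M21. The fit was tested on simulated counts. No library was a duplicate of another. Alternatives were DESeq2 1.42.0 (size factors or Wald test), no filter, only the groups compared, the replicate number as a block, the fold of mean CPM, and leaving out each ovary in turn.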

Additional observations from a re-analysis of the deposited data

Results flagged for a closer look

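In the Control group, the only group of 4 ovaries, a single ovary lay apart by Dixon's test at its 95% critical value in 6 of 51 values checked, 2 of them members. Chance marks about 1 in 20 groups. Ctss was 77.1 CPM in Control replicate 33, against 58.9 to 59.8 CPM in the others, and Ctsk was 13.2 CPM in Control replicate 31, against 18.2 to 19.0 CPM. Of the other lysosomal genes, Gpnmb (88.1 CPM) and Napsa (1.82 CPM) were high in Control replicate 33. The macrophage marker sum was low in Control replicate 31 (401 CPM), and the oviduct marker sum was high in Control replicate 33 (407 CPM). Without Control replicate 33 the called members of Aged vs Control at adjusted p numbered 7, with Laptm5 lost, where 8.32% of all genes were called. The cause was not tested.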

How the results depend on the processing

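In Aged vs Control, 8 members were called at adjusted p, and 5 to 10 when 1 ovary was left out, with the fewest without Control replicate 32 or 34. In the 10 fits that left out 1 ovary, 5.74% to 16.1% of all genes were called at adjusted p. The calls of Asah1, Ctsd, Ctss, Lamp1 and Tfeb held in all 10 such fits, those of Ctsb and Ppt1 in 7 and that of Laptm5 in 2. The replicate block, a term for the replicate number of the labels, left 0 members called at adjusted p and 80 genes in all, and 10 members at unadjusted p, where 15.7% of all genes were called. Its added terms leave fewer degrees of freedom in a fit of 10 ovaries. With it, the 8 members had log2 fold changes of 0.59 (Ppt1) to 1.44 (Ctss), against 0.59 (Ppt1) to 1.56 (Ctss) without it. Their adjusted p values were 0.0592 (Asah1) to 0.151 (Laptm5) by edgeR. Same-numbered ovaries came from different mice, and their deviations from the group means correlated at -0.148 to 0.257 over 6 pairs. What the numbers stand for is not given in the sources used here. Whether same-numbered ovaries shared a batch was not tested.

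In Aged+CF vs Aged, DESeq2's Wald test called 1 member at adjusted p in place of 0. At unadjusted p, DESeq2's size factors and its Wald test each called 2 in place of 1, and leaving out 1 ovary gave 1 to 5, with 5 without Aged replicate 31. Over all genes, size factors called 7.89%, the Wald test 5.07% and the fits without 1 ovary 5.95% to 12.2%. Without Aged replicate 31 it was 9.53%, against 7.96% with all ovaries. The count stayed at 1 with the replicate block and in a fit of only the groups compared, but for other members: Ctss was lost in both, and Lgmn (0.76, higher) and Asah1 (lower) were called in its place. In Aged+CF vs Control at adjusted p, DESeq2's Wald test called 2 members, a fit of only the groups compared 1, and leaving out 1 ovary 0 to 1, in place of 0. The shares over all genes were 2.57%, 2.63% and 0.0358% to 1.8%. Over all genes, Aged+CF vs Aged had 1 called at adjusted p with all ovaries and 556 without Aged replicate 34.

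For the other lysosomal genes, alternatives were chosen after seeing the data. Their 10 calls in Aged vs Control became 17 with DESeq2's Wald test, 0 with the replicate block and 4 to 20 when 1 ovary was left out. Over all genes, these settings called 13.3%, 0.422% and 5.74% to 16.1%. Their 4 calls in Aged+CF vs Control at unadjusted p became 7 with the replicate block, where 6.92% of all genes were called. At adjusted p, their 0 calls in Aged+CF vs Aged and in Aged+CF vs Control each became 2 with DESeq2's Wald test and 0 to 3 when 1 ovary was left out, and in the latter 3 in a fit of only the groups compared. The medians of the members without Aged replicate 34 were also added then. No member called with all ovaries was of the opposite sign under these alternatives. With 3 or 4 ovaries a group, small differences are not detectable, and 1 ovary can decide a call. The causes were not tested.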
